A study of Homo sapiens with 6 samples.

Results

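GD2 and the other gangliosides are sphingolipids with sialic acid in their sugar head, built in the Golgi by glycosyltransferases that each add 1 sugar. The 10 genes described here encode 9 of these transferases, from the first glucose to the last sialic acid, and 1 lysosomal activator protein. They are UGCG, B4GALT5, B4GALT6, ST3GAL5, ST8SIA1, B4GALNT1, B3GALT4, ST3GAL2, ST8SIA5 and GM2A. Their rows were found through the GENCODE 29 symbols of the deposited gene IDs. All 10 were found among 32434 gene IDs, and 7 of them reached the mean of 1 FPKM needed for testing.

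The samples were SK-N-BE(2) cells, an established line from a human neuroblastoma, in 2 groups of 3 libraries. The shMYT1 group carried a lentiviral hairpin against MYT1, a zinc-finger transcription factor gene of developing neurons. The shNC group was the control, named in the title as shNC and in the genotype field as control. The protocol, given alike for both groups, describes stable lines made by 24 h of infection followed by 48 h in puromycin. The genotype and design fields say knockout where the titles and the protocol say knockdown. No source used here gives the hairpin sequence, the number of hairpins or whether the lines were clones or pools. The labels do not call the replicates separate cultures, and the p-values therefore cover only the spread among these libraries, which may be technical.

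Ceramide receives glucose and then galactose to become lactosylceramide, and 1 sialic acid turns this into GM3. From GM3 the path divides. A second sialic acid gives GD3, from which the b-series and GD2 follow, while addition of N-acetylgalactosamine to GM3 itself gives GM2 and the a-series. GD2 is abundant on most neuroblastoma cells and is the antigen bound by the antibodies used to treat this tumour. Its synthesis from GM3 takes the products of ST8SIA1 and B4GALNT1.

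The libraries held 18.16 to 20.3 M fragments in shMYT1 and 21.08 to 21.68 M in shNC, as recovered from the deposited FPKM. MYT1 itself measured 4.23 ± 0.115 FPKM in shMYT1 and 5.34 ± 0.34 FPKM in shNC (SD, n = 3 each), a log2 fold change of -0.28 (limma adjusted p = 0.0102). Of the 14106 genes tested, 12.3% were called lower and 11.9% higher in shMYT1. Of all called genes 49.2% were thus higher, and 36.4% were when libraries were scaled to 1 FPKM total. All 10 neuroblastoma markers checked were measured, with a summed level of 2669.6 to 2780.1 FPKM in shMYT1 and 3066.7 to 3236.8 FPKM in shNC. All 9 fibroblast markers were measured, with sums of 145.5 to 149.1 FPKM in shMYT1 and 191.4 to 196.6 FPKM in shNC. LUM was the largest single part, at 52.4 to 58.1 FPKM in shMYT1 and 93.7 to 102 FPKM in shNC. Of 7 tested fibroblast markers, limma called 3 lower and 2 higher in shMYT1, beside 12.3% and 11.9% of all tested genes. The 2 higher were COL3A1 (7.46 to 8.01 FPKM in shMYT1, 6.28 to 6.88 in shNC) and PDGFRA (2.77 to 2.955 and 2.00 to 2.13). Under the filter, FAP was higher at 0.0563 to 0.0787 FPKM in shMYT1 and 0 to 0.0136 FPKM in shNC. So was COL1A2, at 0.147 to 0.177 FPKM in shMYT1 and 0.0769 to 0.129 FPKM in shNC. Of 8 Schwann cell precursor markers 5 were measured, summing to 2.58 to 3.29 FPKM in shMYT1 and 2.22 to 2.34 FPKM in shNC. Of 7 leukocyte markers 4 were measured, summing to 0.853 to 1.27 FPKM in shMYT1 and 0.376 to 0.671 FPKM in shNC. CD14 carried most of that sum, at 0.770 to 1.17 FPKM in shMYT1 and 0.303 to 0.480 FPKM in shNC, and PTPRC, the marker of all leukocytes, was at 0.0471 to 0.0599 FPKM in shMYT1 and 0.0501 to 0.0910 FPKM in shNC. The part of these shifts in the results that follow was not tested.

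Both enzymes between GM3 and GD2, and both lactosylceramide synthases, had lower transcript levels in all 3 shMYT1 libraries than in any shNC library. B4GALNT1 and B4GALT6 passed the test, B4GALT5 did not, and ST8SIA1 lay under the expression filter. The first step (UGCG), GM3 synthesis (ST3GAL5) and the later sialyltransferase ST3GAL2 differed by 4.29% or less between group means. Among the 7 tested genes 2 were called lower (limma, adjusted p under 0.05), beside 12.3% of all tested genes, and 0 were called higher, beside 11.9%. At an unadjusted p under 0.05 the counts were 3 lower, beside 18.9% of all tested genes, and 0 higher, beside 18.0%. In a voom fit on recovered fragments, which takes in 9 of the 10 genes, 4 were called lower and 0 higher, beside 14.7% of 17516 genes in each direction. The groups did not overlap in 3 of the 7 tested genes on the lower side, beside 21.8% of tested genes, and in 1 on the higher side, beside 20.5%. Among all genes of at least 10 fragments, the scope that takes in ST8SIA1, 20.6% did not overlap on the lower side and 20.1% on the higher side. The RNA came from whole cultures, in which fewer cells of a type and less RNA per cell cannot be told apart.

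**Figure D1:**
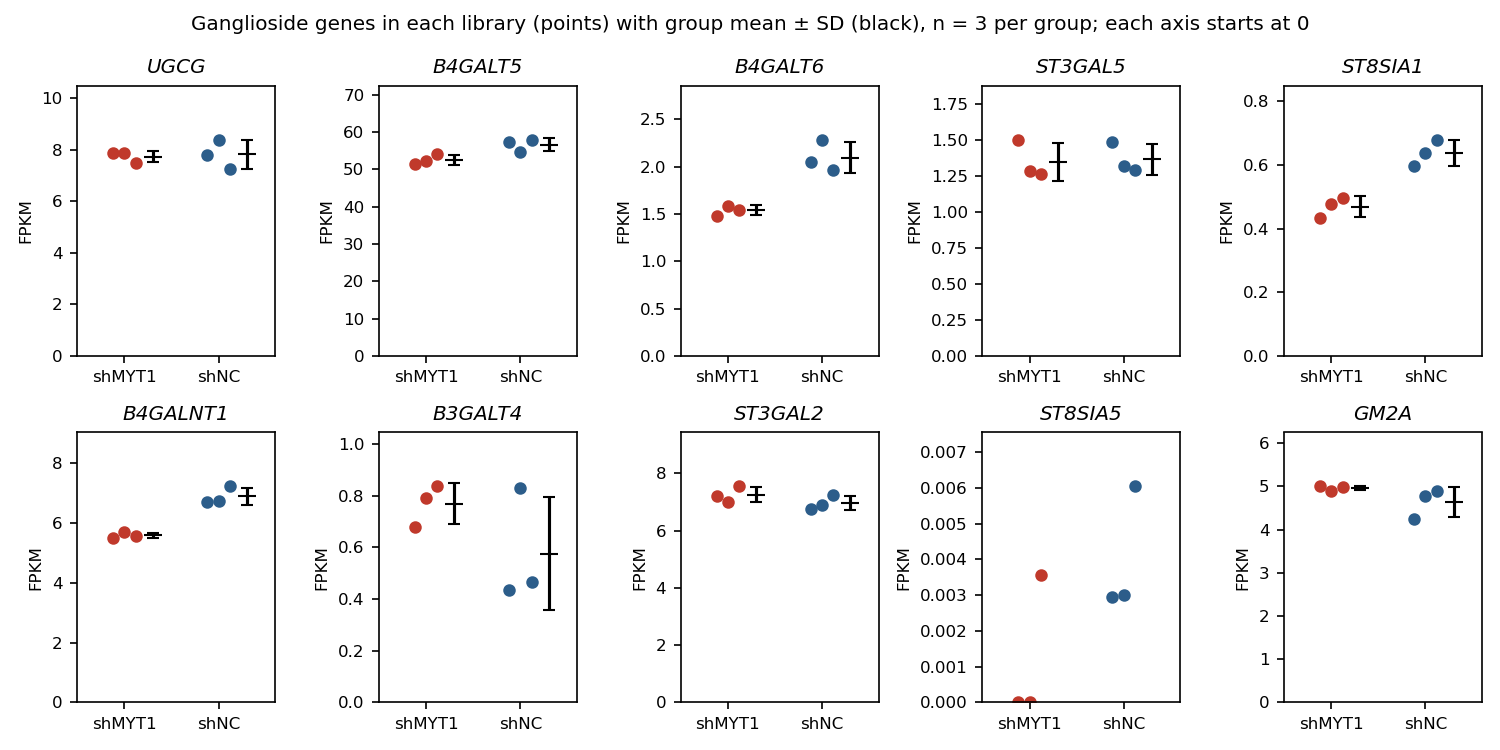
FPKM of each of the 10 genes in the 3 shMYT1 libraries (red) and the 3 shNC libraries (blue), with the group mean ± SD in black, and none for ST8SIA5. The shMYT1 points of B4GALT5, B4GALT6, ST8SIA1 and B4GALNT1 all lie below the shNC points, and those of GM2A all lie above.

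B4GALNT1 (ENSG00000135454, hg38 chromosome 12, 57623410 to 57633355, minus strand) encodes the N-acetylgalactosaminyltransferase that makes GM2 from GM3 and GD2 from GD3. It was measured at 5.51, 5.69 and 5.58 FPKM in shMYT1 libraries, against 6.72, 6.73 and 7.23 FPKM in shNC libraries. The groups did not overlap, and the mean was lower by 18.8% in shMYT1. On the log2(FPKM + 1) scale B4GALNT1 changed by -0.26 (SE 0.04, 95% interval -0.36 to -0.16, limma adjusted p = 0.00576). Between 794 and 880 fragments per shMYT1 library and 1131 to 1213 per shNC library lay behind these values. B4GALNT1 shares 26.7% of its exon bases with SLC26A10, which runs the other way. The strand setting of the counting is not stated, so fragments there cannot be assigned with certainty. SLC26A10 averaged 1.13 ± 0.10 FPKM in shMYT1 and 1.13 ± 0.20 FPKM in shNC (SD, n = 3 each; limma adjusted p = 0.977).

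ST8SIA1 (ENSG00000111728, chromosome 12, 22063773 to 22437041, minus strand) encodes GD3 synthase, the sialyltransferase that opens the b-series and so stands before GD2. Its level was 0.432, 0.476 and 0.497 FPKM in shMYT1 libraries, against 0.598, 0.638 and 0.678 FPKM in shNC libraries. Every shMYT1 value was below every shNC value, and the mean was lower by 26.5%. The mean over 6 libraries, 0.553 FPKM, was under the filter of 1 FPKM, although the gene's 14483 annotated exon bases drew 122 to 128 fragments in shMYT1 and 186 to 206 in shNC. In the voom fit on recovered fragments, chosen after seeing the data, ST8SIA1 changed by -0.45 in log2 (SE 0.12, 95% interval -0.69 to -0.21, adjusted p = 0.00411). That call held when any 1 library was left out (adjusted p from 0.00426 to 0.0377). In the limma fit with no filter on low values it did not pass, with a change of -0.16 after 1 was added to each FPKM (adjusted p = 0.248), beside 4.05% of 32434 genes called lower and 3.84% called higher in that fit.

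Sequence before the start site is shown for ST8SIA1 and B4GALT5, whose groups did not overlap on the lower side, and for UGCG, whose groups overlapped, to let the windows be compared. Each is the 250 bases upstream of the RefSeq start (GRCh38.p14), 5′ to 3′ on the gene's own strand. Capitals mark the GC box GGGCGG, or its reverse complement where the box lies on the other strand. The windows are chr12:22334708-22334957 on the minus strand for ST8SIA1, chr20:49713879-49714128 on the minus strand for B4GALT5 and chr9:111896564-111896813 on the plus strand for UGCG.
ST8SIA1: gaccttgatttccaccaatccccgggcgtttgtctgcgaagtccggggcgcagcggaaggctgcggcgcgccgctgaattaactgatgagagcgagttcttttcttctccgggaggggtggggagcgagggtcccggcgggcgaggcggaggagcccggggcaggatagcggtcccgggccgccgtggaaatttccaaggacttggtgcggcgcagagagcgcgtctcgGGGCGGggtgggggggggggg
B4GALT5: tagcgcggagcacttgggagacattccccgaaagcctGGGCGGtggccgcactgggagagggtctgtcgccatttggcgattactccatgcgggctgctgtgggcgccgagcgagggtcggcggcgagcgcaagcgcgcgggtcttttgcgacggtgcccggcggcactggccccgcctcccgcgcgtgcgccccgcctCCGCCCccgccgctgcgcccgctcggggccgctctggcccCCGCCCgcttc
UGCG: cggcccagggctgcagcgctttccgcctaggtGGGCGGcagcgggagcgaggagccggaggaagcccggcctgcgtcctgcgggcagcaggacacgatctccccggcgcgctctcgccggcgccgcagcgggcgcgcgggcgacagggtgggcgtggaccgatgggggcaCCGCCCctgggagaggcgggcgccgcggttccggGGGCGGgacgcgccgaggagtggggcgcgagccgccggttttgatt

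The ST8SIA1 window holds 1 GC box, whose first base lies 21 bases before the start, and the B4GALT5 and UGCG windows hold 3 each. G and C make up 69.2% of the ST8SIA1 window, 75.6% of that of B4GALT5 and 78.4% of that of UGCG, and the median over all 35116 RefSeq windows of this length is 58.0%. A GC box on either strand occurs in 42.6% of those windows. The core bound by MYT1 zinc fingers, AAGTT, occurs on either strand in 30.3% of all windows and in none of the 3 shown. AGGTCA, a motif bound by nuclear receptors such as those of retinoic acid, occurs on either strand in 12.1% of all windows and in none of the 3. These matches are of letters alone, and no match overlaps another in the windows shown. RefSeq windows were matched for 5 of the 10 genes. ST3GAL5 and GM2A are the other two, while B4GALT6, B4GALNT1, B3GALT4, ST3GAL2 and ST8SIA5 were not matched. Among the windows shown, the RefSeq start of ST8SIA1 and of UGCG lies inside the span that GENCODE 29 gives the gene.

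B4GALT6 and B4GALT5 encode the galactosyltransferases that make lactosylceramide, the last precursor shared by all gangliosides of this path. B4GALT6 (ENSG00000118276, chromosome 18, 31622247 to 31685836, minus strand) was at 1.48, 1.59 and 1.54 FPKM in shMYT1 libraries, against 2.04, 2.28 and 1.96 FPKM in shNC libraries. The groups did not overlap, and the mean fell by 26.7% in shMYT1. Its log2 fold change was -0.29 (SE 0.07, limma adjusted p = 0.0249) on the log2(FPKM + 1) scale and -0.45 (SE 0.11, adjusted p = 0.00205) with voom. The limma call was lost when shMYT1 replicate 1, 2 or 3 was left out (adjusted p = 0.077, 0.0523 and 0.0654) and when shNC replicate 1 or 2 was left out (adjusted p = 0.0655 and 0.0888), but not without shNC replicate 3 (0.0356). It was also lost with no filter (0.0713) and when the median shift of 50 neighbouring genes was removed (0.0515).

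B4GALT5 (ENSG00000158470, chromosome 20, 49632945 to 49713878, minus strand) was at 51.3, 52.1 and 54.1 FPKM in shMYT1 libraries, against 57.4, 54.6 and 57.8 FPKM in shNC libraries. The groups lay side by side without overlap, and the means differed by -7.29%. In log2 this was -0.11 (SE 0.03, limma adjusted p = 0.0623), which did not pass. B4GALT5 passed with voom (adjusted p = 0.0203), when every library was scaled to 1 FPKM total (0.016), with quantile normalization (0.0265), with a minimum of 5 FPKM (0.0489) and with the neighbours' shift removed (0.0281). The voom call was lost without shMYT1 replicate 1 or 2 (adjusted p = 0.128 and 0.0534) and without shNC replicate 1 (0.0798). Of the summed FPKM of both genes, B4GALT6 made up 2.81, 2.96 and 2.77% in shMYT1 libraries, against 3.44, 4.01 and 3.28% in shNC libraries. B4GALT5 thus held nearly all of the lactosylceramide synthase transcripts in both groups.

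UGCG (chromosome 9), the glucosylceramide synthase gene at the entry of the pathway, ranged from 7.46 to 7.87 FPKM in shMYT1 and from 7.26 to 8.37 FPKM in shNC. In log2 it differed by -0.01 (95% interval -0.14 to 0.11, limma adjusted p = 0.892). ST3GAL5 (chromosome 2), the GM3 synthase gene at the branch point, ranged from 1.26 to 1.501 FPKM in shMYT1 and from 1.29 to 1.49 FPKM in shNC, with a log2 fold change of -0.01 (95% interval -0.20 to 0.18, limma adjusted p = 0.940). In both genes the groups overlapped. These intervals, on the log2(FPKM + 1) scale, cover only the spread among these libraries and do not show that there was no change.

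B3GALT4 (chromosome 6) encodes the galactosyltransferase that turns GM2 into GM1 and GD2 into GD1b. It was at 0.680, 0.792 and 0.836 FPKM in shMYT1 libraries, against 0.435, 0.829 and 0.466 FPKM in shNC libraries. The groups overlapped through shNC replicate 2, and 22 to 41 fragments per library lay behind the values. Voom gave a log2 fold change of 0.47 with a 95% interval of -0.08 to 1.02 (adjusted p = 0.208). ST3GAL2 (chromosome 16), whose product adds sialic acid to GM1 and GD1b, ranged from 7.01 to 7.54 FPKM in shMYT1 and from 6.76 to 7.23 FPKM in shNC (log2 fold change 0.05, 95% interval -0.05 to 0.15, limma adjusted p = 0.408). ST8SIA5 (chromosome 18), a sialyltransferase gene of more highly sialylated gangliosides, had 0, 0 and 1 fragment in shMYT1 libraries and 1, 1 and 2 fragments in shNC libraries. These lie under the 0.00885 to 0.0107 FPKM that 3 fragments give on its exons, so ST8SIA5 was not detectable above that floor, which covers counting error only.

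GM2A (chromosome 5) encodes the activator protein that lifts GM2 out of the lysosomal membrane for cleavage. It was at 5.00, 4.90 and 4.99 FPKM in shMYT1 libraries, against 4.25, 4.79 and 4.89 FPKM in shNC libraries. The groups did not overlap, but the highest shNC library and the lowest shMYT1 library nearly met. The log2 fold change of 0.08 (SE 0.05) did not pass (limma adjusted p = 0.315). For each gene whose groups did not overlap, MYT1 included, the exact two-sided permutation p was 0.1, the smallest that 3 libraries against 3 allow.

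**Figure D2:**
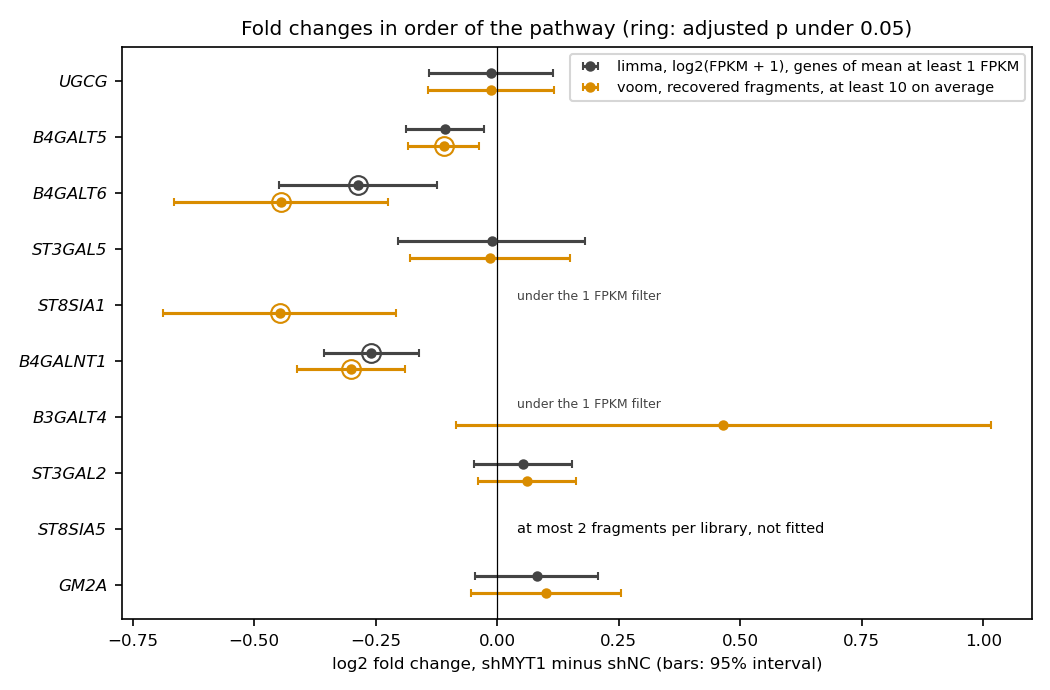
Log2 fold change (shMYT1 minus shNC) of each gene in pathway order, with 95% intervals, from limma on log2(FPKM + 1) (grey) and from voom on recovered fragments (orange); rings mark adjusted p under 0.05. B4GALT6 and B4GALNT1 are ringed in both fits, ST8SIA1 at -0.45 and B4GALT5 at -0.11 in voom, and the intervals of UGCG, ST3GAL5, ST3GAL2, GM2A and B3GALT4 cross 0.

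Balances between neighbouring steps are given as descriptions, since they combine genes already reported. The FPKM of ST8SIA1 was 28.8, 37.1 and 39.4% of that of ST3GAL5 in shMYT1 libraries, against 40.2, 48.4 and 52.5% in shNC libraries. The shMYT1 values were all below the shNC values, though ST3GAL5 itself did not pass the test. The ratio of B4GALNT1 to ST8SIA1 FPKM averaged 11.97 ± 0.76 in shMYT1 and 10.8 ± 0.37 in shNC (SD, n = 3 each), with overlapping libraries.

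In order of mean FPKM over all 6 libraries, B4GALT5 led at 54.6, followed by UGCG at 7.77, ST3GAL2 at 7.11, B4GALNT1 at 6.24 and GM2A at 4.80. B4GALT6 at 1.82, ST3GAL5 at 1.36, B3GALT4 at 0.673, ST8SIA1 at 0.553 and ST8SIA5 at 0.0026 FPKM came after. The ranges of neighbours in that order overlapped between UGCG and ST3GAL2, ST3GAL2 and B4GALNT1, B4GALT6 and ST3GAL5, and B3GALT4 and ST8SIA1. The deposited FPKM divide by all annotated exon bases of a gene, of which ST3GAL5 has 16318 and B4GALNT1 has 8003, against 4431 and 3036 in their longest protein-coding transcripts. Per kilobase of the longest protein-coding transcript, a basis chosen after seeing the data, B4GALNT1 came second at 16.5 FPKM and ST3GAL5 sixth at 5.00 FPKM. ST8SIA1 remained ninth at 0.825 on that basis, below B4GALNT1 in every library. All tests were made on the deposited values.

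**Figure D3:**
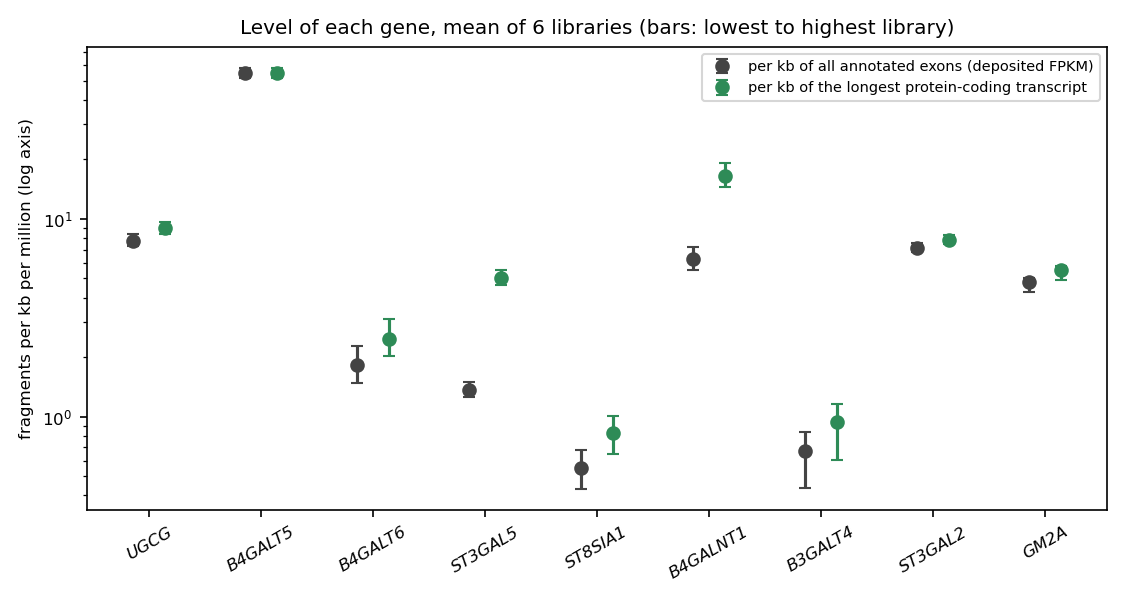
Mean level of 9 of the 10 genes over 6 libraries on a log axis, in FPKM, with bars from the lowest to the highest library. Grey uses all annotated exons, as deposited, and green the longest protein-coding transcript; B4GALNT1 moves from 6.24 to 16.5 and ST3GAL5 from 1.36 to 5.00, while B4GALT5 stays at 54.6.

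Of the 2 ganglioside genes past the limma threshold, B4GALT6 had the larger absolute log2 fold change. The tested protein-coding genes with profiles most like it over the 6 libraries were TMEM170B, SH3BGRL2 and TRIQK. Their centred log2(FPKM + 1) values differed from those of B4GALT6 by 0.0168, 0.0177 and 0.0181 on average per library. Each had a log2 fold change of -0.28, which their choice by likeness to B4GALT6 fixes, so it is a description only.

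Around the 10 genes, 81 further genes of sphingolipid and sialic acid metabolism were listed in 5 groups, of which 79 were measured and 64 tested. In these 8 were called higher and 10 lower in shMYT1, with a median log2 fold change of 0.03, against -0.005 over all tested genes and -0.01 over the 7 tested ganglioside genes. The shares called were close to the 11.9% and 12.3% of all tested genes.

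In ganglioside breakdown, limma called 3 of 14 tested genes higher and 2 lower, beside 11.9% and 12.3% of all tested genes. The other 9 did not pass, and the median log2 fold change was 0.06. PSAP, the precursor of the saposins that help lysosomal enzymes reach sphingolipids, was at 205, 207 and 215 FPKM in shMYT1 libraries, against 159, 149 and 162 FPKM in shNC libraries (log2 fold change 0.42, limma adjusted p = 0.000663). NEU1, the lysosomal sialidase gene, averaged 4.06 ± 0.22 FPKM in shMYT1 and 3.21 ± 0.21 FPKM in shNC (SD, n = 3 each; limma adjusted p = 0.0195). CTSA, whose product protects NEU1 in the lysosome, averaged 11.7 ± 0.29 FPKM in shMYT1 and 10.1 ± 0.34 FPKM in shNC (SD, n = 3 each; limma adjusted p = 0.0129), and shares exon bases with genes on the other strand. ASAH1, an acid ceramidase gene named after its values were seen, was called lower (log2 fold change -0.18, limma adjusted p = 0.0271). It lies on chromosome 8 among neighbours with a median of -0.12, and with their shift removed its value was -0.06 (adjusted p = 0.388). HEXA, whose product cleaves GM2, averaged 1.63 ± 0.051 FPKM in shMYT1 and 1.38 ± 0.052 FPKM in shNC (SD, n = 3 each; limma adjusted p = 0.160), which did not pass. In voom HEXA passed (log2 fold change 0.24, adjusted p = 0.017), and it shares exon bases with genes on both strands. Voom called 6 higher and 2 lower of 15 fitted breakdown genes, beside 14.7% of all genes in each direction.
Of PSAP, NEU1 and CTSA, the last 2 did not keep their calls when 1 library was left out. For ASAH1 those fits are not given, and its call was lost in limma with no filter (adjusted p = 0.061). NEU1 lost its call without shMYT1 replicate 1 (adjusted p = 0.0676), shMYT1 replicate 2 (0.0601) or shNC replicate 2 (0.0536), and CTSA without shMYT1 replicate 1 (0.0509) or shNC replicate 2 (0.0511).

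In ceramide synthesis and transport, none of 16 tested genes passed in limma, and the median log2 fold change was 0.01. At an unadjusted p under 0.05 the counts were 0 higher and 2 lower, beside 18.0% and 18.9% of all tested genes. Voom called 0 higher and 2 lower of 19 fitted genes, beside 14.7% in each direction. DEGS1, the desaturase gene of the last step to ceramide, averaged 36.5 ± 1.02 FPKM in shMYT1 and 39.0 ± 0.94 FPKM in shNC (SD, n = 3 each; limma adjusted p = 0.0819). DEGS1 passed when libraries were scaled to 1 FPKM total (0.035) and when the replicate number was a block (0.0397). SPTSSA, a small subunit of serine palmitoyltransferase, averaged 27.5 ± 2.38 FPKM in shMYT1 and 25.5 ± 1.13 FPKM in shNC (SD, n = 3 each; limma adjusted p = 0.286).

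In other glycosphingolipid branches, limma called 1 of 6 tested genes higher and 1 lower, beside 11.9% and 12.3% of all tested genes. The other 4 did not pass, and the median log2 fold change was 0.06. Voom called 2 higher and 3 lower of 9 fitted genes, beside 14.7% of all genes in each direction. B3GALT5, a galactosyltransferase gene of lacto-series chains, was at 2.12, 1.86 and 2.08 FPKM in shMYT1 libraries, against 1.33, 1.15 and 1.24 FPKM in shNC libraries (log2 fold change 0.43, limma adjusted p = 0.00721). B3GALNT1, the globoside synthase gene, averaged 17.4 ± 0.84 FPKM in shMYT1 and 19.9 ± 0.43 FPKM in shNC (SD, n = 3 each; limma adjusted p = 0.0174). The B3GALNT1 call was lost without shMYT1 replicate 1 or 3 (adjusted p = 0.0623 and 0.0510) and without shNC replicate 1 or 2 (0.0578 and 0.0663).

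Of 12 tested sialyltransferase genes outside the 10, limma called 4 higher and 3 lower, beside 11.9% and 12.3% of all tested genes. The other 5 did not pass, and the median log2 fold change was 0.03. Voom called 5 higher and 5 lower of 14 fitted genes, beside 14.7% of all genes in each direction. ST6GAL2, a sialyltransferase gene of glycoproteins, was at 1.27, 1.42 and 1.35 FPKM in shMYT1 libraries, against 3.34, 3.93 and 3.43 FPKM in shNC libraries. Its shMYT1 mean was 0.378 of the shNC mean, a change of -0.96 in log2 (limma adjusted p = 0.000380). ST3GAL1, which sialylates O-linked chains, averaged 6.71 ± 0.035 FPKM in shMYT1 and 9.30 ± 0.31 FPKM in shNC (SD, n = 3 each; change -0.42 in log2, limma adjusted p = 0.000637). ST3GAL1 lies on chromosome 8 among neighbours with a median of -0.20, and with their shift removed it was lower by 0.22 (adjusted p = 0.00798). ST6GALNAC3 and ST6GALNAC5, which add sialic acid to N-acetylgalactosamine residues and can act on gangliosides, were higher by 0.33 and 0.26 in log2 (limma adjusted p = 0.00553 and 0.0210). The ST6GALNAC5 call was lost without shMYT1 replicate 2 or 3 (adjusted p = 0.0628 and 0.0674) and without shNC replicate 1 or 2 (0.0654 and 0.0517).

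In sugar nucleotide supply, 4 of 16 tested genes were lower, 0 higher and 12 did not pass, with a median log2 fold change of -0.01. Over all tested genes 12.3% were lower and 11.9% higher. At an unadjusted p under 0.05 the counts were 2 higher and 6 lower, beside 18.0% and 18.9% of all tested genes, and voom called 1 higher and 4 lower, beside 14.7% in each direction. The 4 genes called lower by limma had voom adjusted p from 7.25e-07 to 0.0867. GFPT1, the gene of the first enzyme of the hexosamine pathway, was at 8.10, 7.62 and 7.60 FPKM in shMYT1 libraries, against 10.8, 10.0 and 9.62 FPKM in shNC libraries (log2 fold change -0.34, limma adjusted p = 0.00383). The other 3 belong to the supply of sialic acid itself. NANS and NANP, of the same supply, did not pass in limma (log2 fold change 0.01 and -0.21, adjusted p = 0.894 and 0.0735). In voom NANP was called lower (log2 fold change -0.26, adjusted p = 0.0206) and NANS did not pass (0.906). GNE, the gene of the enzyme that starts sialic acid synthesis, averaged 11.7 ± 0.32 FPKM in shMYT1 and 13.4 ± 0.30 FPKM in shNC (SD, n = 3 each; limma adjusted p = 0.0117). CMAS, which activates sialic acid, averaged 21.3 ± 0.99 FPKM in shMYT1 and 24.1 ± 0.16 FPKM in shNC (SD, n = 3 each; limma adjusted p = 0.0180). SLC35A1, the Golgi transporter gene for activated sialic acid, averaged 1.73 ± 0.11 FPKM in shMYT1 and 2.25 ± 0.19 FPKM in shNC (SD, n = 3 each; limma adjusted p = 0.0455). The SLC35A1 call was lost without any 1 of the 6 libraries (adjusted p = 0.0583 to 0.120) and with voom (0.0867). That of CMAS was lost without shMYT1 replicate 2 or 3 (0.0511 and 0.0588) and without shNC replicate 1 or 2 (0.0614 and 0.0607). With the neighbours' shift removed neither passed, SLC35A1 at -0.15 (adjusted p = 0.188) and CMAS at -0.12 (0.0646).

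**Figure D4:**
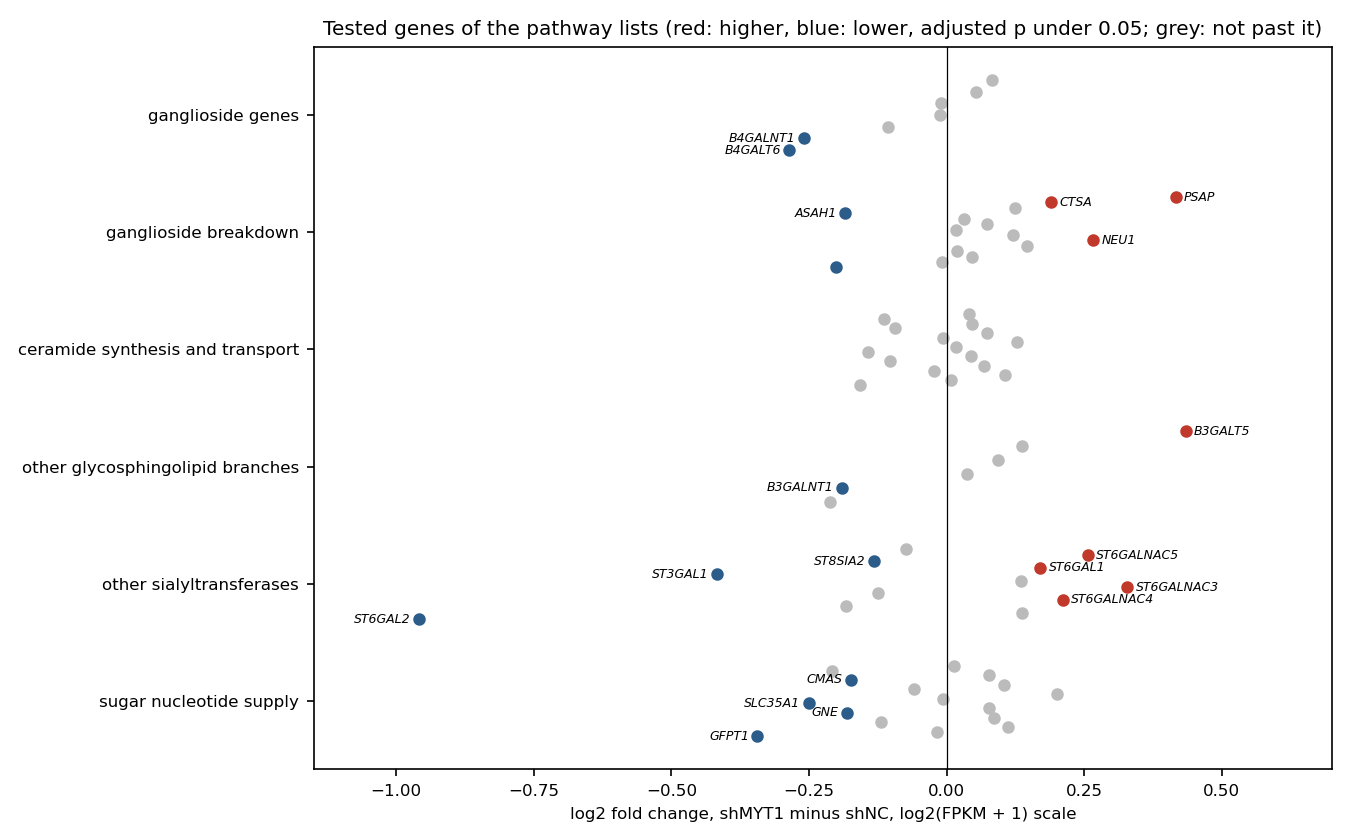
Log2 fold change (shMYT1 minus shNC, log2(FPKM + 1) scale) of every tested gene in the 6 lists; red and blue points passed at adjusted p under 0.05 on the higher and lower side and are mostly named, and grey points did not pass. ST6GAL2 at -0.96 lies lowest and B3GALT5 at 0.43 highest, no point of ceramide synthesis and transport is coloured, and the 4 coloured points of sugar nucleotide supply are all on the lower side.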

How the data were processed

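FPKM per gene and library were deposited by the authors in 1 table. HISAT2 2.0.5, featureCounts 1.5.0-p3 and hg38 are named per the submitters' processing notes. No source used here gives the annotation or strand setting. Of 32434 gene IDs, 32301 matched GENCODE 29. For 95.4% of these, FPKM times exon length came out as whole fragments (tolerance 0.01) after division by what 1 fragment is worth in each library. Values were used as deposited. The medians of their ratios to the mean library were equal between libraries.

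Genes averaging 1 FPKM or more were fitted in limma 3.58.1 under R 4.3.3, two-sided. Values were log2(FPKM + 1) and the variance followed a trend. The fit set 3 shMYT1 against 3 shNC libraries, with Benjamini-Hochberg adjustment over all 14106 genes and a threshold of 0.05. Fold changes on this scale understate changes of low genes. Voom on recovered fragments, at least 10 on average, was added after the data were seen.

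The 10 genes, lists and tests were chosen with earlier results of these data known. Named were MYT1, the 10 genes, up to 4 passing genes per list with the largest change (the 2 highest where none passed), and the 3 genes most like the member that changed most. Some genes the rule selects are left out and not reported here. The fits were tested on simulated data. Replicate pairs differed by more than counting noise (chi-square per gene 2.09 to 3.41), and none were merged. Alternatives varied pseudocount, filter, scaling, variance model, neighbours' shift, replicate block and libraries.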

Additional observations from a re-analysis of the deposited data

How the results depend on the processing

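Against 2 ganglioside genes called lower in shMYT1, 1 was called with no filter on low values, 4 with voom over genes of at least 10 fragments, 1 to 2 when 1 library was left out and 3 to 4 when 1 was left out of that voom fit; 0 were called higher under each of these settings. B4GALNT1 passed in all 16 alternatives other than the voom fits added after seeing the data (adjusted p from 7.21e-05 to 0.0267), B4GALT6 in 8 of 15 (0.00197 to 0.0888) and B4GALT5 in 5 of 16 (0.0159 to 0.18). The near-zero fold changes of UGCG and ST3GAL5 turned positive with the neighbours' shift removed (0.0336 and 0.00968). Over the fits without 1 library UGCG ranged from -0.0576 to 0.033 and ST3GAL5 from -0.0567 to 0.026. In voom UGCG turned positive without shMYT1 replicate 3 (0.011) and shNC replicate 2 (0.0377), and ST3GAL5 without shMYT1 replicate 2 (0.0188), shMYT1 replicate 3 (0.0316) and shNC replicate 1 (0.0493); none of these passed. Of the further pathway genes, 8 were called higher: 5 with a minimum of 5 FPKM, 5 with no filter, 13 with voom, 14 with voom at 10 fragments, 3 to 9 without 1 library and 9 to 14 in voom without 1 library. The 10 called lower became 6 with the neighbours' shift removed, 16 with voom at 10 fragments, 4 to 8 without 1 library and 11 to 17 in voom without 1 library. Over all genes, 1683 were called higher and 1737 lower; voom at 10 fragments called 2577 higher, the fits without 1 library called 1018 to 1579 higher and 1020 to 1469 lower, and voom without 1 library called 2031 to 2656 and 2024 to 2648. Rescaling to a common FPKM total called 1307 higher and 2279 lower, 36.4% higher against 49.2% as deposited. Causes of these differences were not tested. With the replicate block, 1652 genes were higher and 1729 lower, B4GALNT1 (adjusted p = 0.0175) and B4GALT6 (0.046) stayed called, SLC35A1 lost its call (0.0771) and DEGS1 gained one (0.0397). The titles give replicate numbers but do not say whether these pair the samples. Deviations of same-numbered libraries from their group means correlated at 0.033, 0.013 and 0.043 across genes, and those of the other pairs at -0.039 to 0.008. Each library correlated best with its own number, but at 0.043 or less. Deviations within a group are tied together by its mean, so these values do not show whether the numbers pair the samples. At 22 to 41 fragments B3GALT4 could not be resolved, and ST8SIA5 lay under its floor.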

Other observations

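Some pathway genes under the filter of 1 FPKM differed without overlap between groups, and were picked here after their values were seen. UGT8, whose product competes for ceramide by making galactosylceramide, had 1, 4 and 0 fragments in shMYT1 libraries, against 21, 19 and 28 in shNC libraries (adjusted p = 0.0195 in limma with no filter; voom adjusted p = 2.83e-06, beside 14.7% of 17516 genes called lower). CERS1, a ceramide synthase gene of neurons, had 41, 31 and 33 fragments in shMYT1 libraries, against 69, 79 and 54 in shNC libraries (voom adjusted p = 0.0104), and did not pass in the limma fit without a filter (adjusted p = 0.125). It shares exon bases with GDF1 on the same strand, so its fragments are uncertain. A4GALT, the gene of the enzyme that opens the globo-series, had 15, 10 and 14 fragments in shMYT1 libraries, against 3, 6 and 8 in shNC libraries, too few for the voom fit; limma with no filter gave adjusted p = 0.0785. It was listed at 0.173 to 0.230 FPKM in shMYT1 and 0.0475 to 0.113 FPKM in shNC.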
